A study of Mus musculus with 9 samples.

Results

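The genes of the cellular response to oxygen described here were followed through lists of open chromatin from mouse lung endothelial cells at 3 ages. They are 8 in number: Epas1, Hif1a and Hif3a, which encode the alpha subunits of the hypoxia-inducible factors (HIF), Arnt, which encodes their partner subunit, Egln1 and Egln3, which encode oxygen-sensing prolyl hydroxylases, Vhl, which encodes the subunit that brings hydroxylated alpha subunits to a ubiquitin ligase, and Ndrg1, a widely used HIF target. They were taken by name as 8 of 21887 protein-coding genes. No measured value served as the rule, but earlier results of these data were known when they were chosen. ATAC-seq, an assay that uses a transposase to mark stretches of DNA left free by nucleosomes, had been run on cells sorted from lung by flow cytometry. The groups were 3 infant, 3 young adult and 3 mature adult libraries. By its title, the study deals with enhancers in the passage of endothelium from an angiogenic to a quiescent state. The labels give no strain, genotype, treatment or age in days. Nothing in them tells whether each library is a different animal. All p-values here thus refer to the spread among the libraries, which may be technical.

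When oxygen is plentiful, the prolyl hydroxylases modify the alpha subunits, which are then bound by the VHL protein and degraded. When oxygen is short, the alpha subunits persist, pair with ARNT and bind a short DNA core, A or G followed by CGTG, at their target genes. Several of these targets encode parts of the pathway itself, and EGLN3 is a well known example of such feedback. EPAS1, also called HIF-2 alpha, was named for its high expression in endothelium, and blood vessels of the lung are one of its best described sites of action.

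Each library is a list of peaks, positions that the submitters called open, and no peak has a height or read count. The narrowest peak of every list measured 150 bp. Sequencing depth is unknown here, so the absence of a peak does not show that a site was closed. A peak belonged to a gene if its centre lay in the gene, and a peak outside all genes to the one whose end was closest, up to 100 kb away. Distances are between a region's centre and the transcription start, and at Epas1 and Ndrg1, whose start was not used, the nearer end of the gene. The infant lists held 88856 to 94646 peaks, the young adult lists 67550 to 68366 and the mature adult lists 59793 to 64208. Every measure was therefore tested on 2 scales, once scaled to the length of each library's list (for widths, with the library's median removed) and once as it stands. A gene is said to have risen or fallen only where both scales passed in the same direction. The test was limma, fitted on all genes or regions in all 9 libraries, with Benjamini-Hochberg adjustment over all of them and a threshold of 0.05. In young adult replicate 3, 4901 merged regions were shared with no other list, and in mature adult replicate 1 there were 4536 such regions, against 1211 to 2003 in each of the other adult lists. They are called the pair that stood apart, and results are given with and without them where they matter. The 8 endothelial markers together had 180 to 191 peaks in infant, 158 to 175 in young adult and 145 to 171 in mature adult libraries. As a share of the peaks assigned to genes the order turned, with 0.22% to 0.232%, 0.258% to 0.274% and 0.268% to 0.291%. The 6 fibroblast and mural markers had 46 to 51, 19 to 20 and 19 to 21 peaks (0.0566% to 0.0587%, 0.0299% to 0.0327% and 0.0319% to 0.0387% of assigned peaks), with Pdgfrb or Des at 0 in some adult libraries. The 4 epithelial markers had 14 to 20, 7 to 12 and 9 to 10 peaks and the 4 leukocyte markers 6 to 7, 5 to 8 and 5 to 6, of which the leukocyte share was no lower in adults (0.0073% to 0.0081%, 0.0082% to 0.0126% and 0.0084% to 0.0111%), with Sftpc (surfactant protein C) and Cd68 (macrophages) at 0 in all 9. In sorted bulk cells, fewer cells of a type and less open chromatin per cell cannot be told apart.

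RefSeq promoter windows of GRCm38.p6, which is the mm10 build of the lists, were found for 6 of the 8 genes and run 250 bases before to 50 bases after the transcription start. Epas1 and Ndrg1 had no entry. The windows of 4 genes are shown: those of Hif3a and Egln3 because the peak at the start differed with age, being seen in infants alone at Hif3a and changing its extent at Egln3, and those of Hif1a and Egln1 as windows with a peak in all 9 libraries and more than 1 HIF core. Capitals mark the HIF core, ACGTG or GCGTG on either strand (CACGT or CACGC where it lies on the other strand).
Hif1a promoter, chr12:73907617-73907916, plus strand: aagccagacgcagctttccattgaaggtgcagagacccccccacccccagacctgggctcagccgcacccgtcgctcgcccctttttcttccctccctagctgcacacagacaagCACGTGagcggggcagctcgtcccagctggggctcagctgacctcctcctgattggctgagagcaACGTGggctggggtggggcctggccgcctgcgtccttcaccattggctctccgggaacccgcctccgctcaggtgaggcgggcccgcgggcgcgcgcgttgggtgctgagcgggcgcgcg
Hif3a promoter, chr7:17062378-17062677, minus strand: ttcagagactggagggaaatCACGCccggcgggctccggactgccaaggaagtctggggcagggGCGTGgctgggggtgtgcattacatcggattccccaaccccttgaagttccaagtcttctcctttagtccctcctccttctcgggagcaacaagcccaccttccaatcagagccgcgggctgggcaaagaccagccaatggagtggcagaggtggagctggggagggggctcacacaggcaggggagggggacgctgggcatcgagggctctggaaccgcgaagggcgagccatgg
Egln1 promoter, chr8:124949205-124949504, minus strand: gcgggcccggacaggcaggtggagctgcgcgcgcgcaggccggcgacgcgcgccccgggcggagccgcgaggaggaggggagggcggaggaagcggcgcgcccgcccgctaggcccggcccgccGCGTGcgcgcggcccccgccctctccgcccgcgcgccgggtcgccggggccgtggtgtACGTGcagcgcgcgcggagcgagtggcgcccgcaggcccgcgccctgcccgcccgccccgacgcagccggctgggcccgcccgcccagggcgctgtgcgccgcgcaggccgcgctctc
Egln3 promoter, chr12:54203825-54204124, minus strand: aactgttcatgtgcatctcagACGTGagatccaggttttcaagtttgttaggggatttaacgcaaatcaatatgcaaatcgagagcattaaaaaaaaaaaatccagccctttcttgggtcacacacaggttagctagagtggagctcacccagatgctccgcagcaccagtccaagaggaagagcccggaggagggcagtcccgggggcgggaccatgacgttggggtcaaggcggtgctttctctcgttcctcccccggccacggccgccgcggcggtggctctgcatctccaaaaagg
The core was found in 5 of the 6 windows (not in that of Vhl) and in 43.77% of all 32851 windows, so it is common. ACGTG alone was in 19.62% and GCGTG in 32.39% of all windows. Hif1a was the member with CACGTG, the palindrome that holds ACGTG on both strands and is also an E-box, which 7.15% of windows contain. CCGGAA, the core of sites for ETS factors such as the endothelial ERG, was in none of the 6 windows and in 14.9% of all. The windows of the members were richer in G and C (54.7% at Egln3 to 86.0% at Egln1) than the median window (52.7%), which bears on how often such cores occur.

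How much open chromatin each gene carried differed widely among the 8. Epas1 averaged 32.0 peaks per library, more than 99.4% of protein-coding genes, and had 2.5 peaks per 10 kb of its own length against a median of 0.601 over the tested genes. Ndrg1 averaged 10.4 peaks, Egln3 7.22, Hif1a 6.0, Hif3a 4.78, Egln1 4.67, Arnt 2.78 and Vhl 1.0. The order therefore ran from a gene with peaks through all of its body and flanks to one with a single peak at its promoter. Neighbours in that order from Hif1a to Egln1 overlapped in their per-library ranges. Hif1a had 1 peak inside the gene in every library and its other peaks outside, which gave 0.216 peaks per 10 kb.

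**Figure D1:**
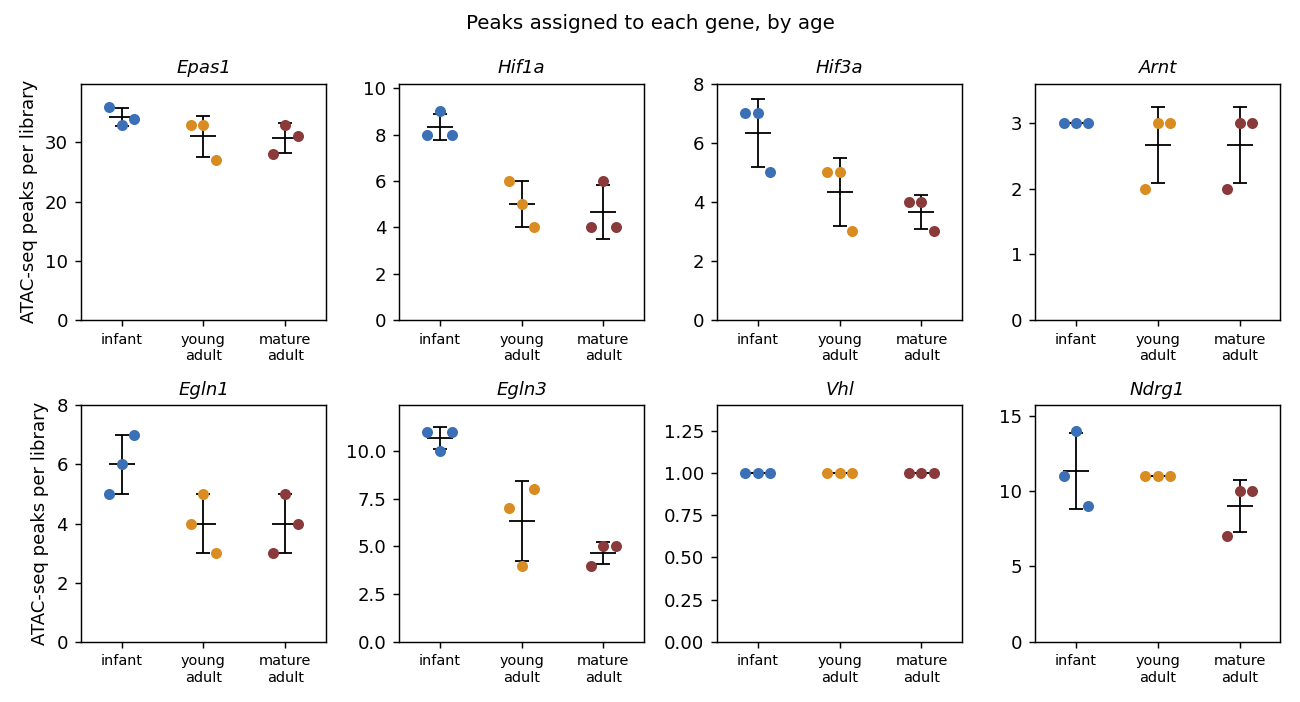
Peaks assigned to each of the 8 genes in each library (y axis, peaks per library, a separate axis from 0 for each gene) at the 3 ages (x axis). Points are libraries, and bars are the mean and SD of 3 libraries. The infant libraries of Hif1a and Egln3 sit above all adult libraries of the same gene, while those of Epas1, Arnt and Ndrg1 overlap with the adult ones and Vhl stays at 1.

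Epas1 kept its open chromatin at all ages, while the peak lists became shorter with age. It carried 36, 33 and 34 peaks in infant, 33, 33 and 27 in young adult and 28, 33 and 31 in mature adult libraries, and the 3 ages overlapped. Its peaks covered 18493 ± 1518 bp in infant, 17183 ± 1748 bp in young adult and 16500 ± 864 bp in mature adult libraries (SD, n = 3 each). As a share of the covered length of each list, Epas1 was higher in young adult than in infant libraries by 0.39 ± 0.046 (log2, SE; limma adjusted p = 0.00102) and in mature adult than in infant libraries by 0.46 ± 0.046 (limma adjusted p = 0.000235). The unscaled covered length gave -0.11 and -0.16 (limma adjusted p = 0.373 and 0.168), so no rise is stated. A higher scaled length was common, with 26.6% of genes called for young adult and 34.6% for mature adult against infant. Without the pair that stood apart the scaled differences were 0.42 and 0.45 (limma adjusted p = 0.00157 and 0.000563). The scaled peak number gave the same direction, 0.27 (limma adjusted p = 0.0323) and 0.38 (limma adjusted p = 0.00619), against 26.1% and 30.4% of genes called higher. The first of these was past the threshold in 3 of 9 repeats that each left out 1 library (adjusted p between 0.00309 and 0.0961), and was lost without any of the 3 infant libraries, young adult replicate 1 or 2 or mature adult replicate 3. Unscaled, the numbers gave -0.15 and -0.16 (limma adjusted p = 0.355 and 0.259).

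The Epas1 peaks fell into 46 merged regions, of which 27 lay inside the gene (chromosome 17, 86753864 to 86833410) and 21 were open in all 9 libraries. The widest lay at 86800495 to 86802995, 31.7 kb inside the gene from its high end, and held 2441, 2403 and 2091 bp of peaks in infant, 2189, 1877 and 2116 bp in young adult and 1938, 2105 and 2080 bp in mature adult libraries. The peak over the low end of the gene, at 86753041 to 86754430, measured 1388, 1149 and 1128 bp, 1241, 1252 and 1119 bp, and 1110, 1128 and 1120 bp in infant, young adult and mature adult libraries. Both were thus present at every age with widths that overlapped between ages. A region 9.1 kb inside the gene from its low end (86762629 to 86763219) did change. It held 339, 302 and 319 bp in infant, 576, 589 and 504 bp in young adult and 567, 563 and 536 bp in mature adult libraries, and every adult library exceeded every infant library. The summed width rose by 0.80 ± 0.0995 (log2, SE) in young adult and in mature adult relative to infant libraries (limma adjusted p = 0.0056 and 0.00326), and held in 9 of 9 repeats that left out 1 library. A second region, 22.9 kb inside the gene from the same end (86776367 to 86777109), held 650, 669 and 718 bp in mature adult libraries against 574, 549 and 556 bp in infant libraries. It rose by 0.28 ± 0.0656 (limma adjusted p = 0.026), and lost the threshold in 5 repeats, without infant replicate 1 (0.0603), 2 (0.0744) or 3 (0.0595) or mature adult replicate 2 (0.0511) or 3 (0.0679). In the young adult libraries it held 670, 662 and 654 bp, which is 0.24 above infant (limma adjusted p = 0.0676). Inside the gene, other regions were narrower in every adult than in every infant library, and none of these passed. The region at 86759588 to 86760369 held 577 to 678 bp in infant and 211 to 536 bp in adult libraries. Its limma adjusted p was 0.128 for young adult and 0.173 for mature adult against infant. The same order held at 86797984 to 86798364 (0.257 and 0.103), 86814198 to 86815836 (0.279 and 0.151) and 86822011 to 86822810 (0.303 and 0.127).

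These width tests were added after the regions had been seen and covered all 41144 regions open in all 9 libraries. Of these, 1.12% widened and 2.09% narrowed in young adult relative to infant libraries, and 1.92% widened and 6.81% narrowed in mature adult relative to infant libraries. The 8 genes held 41 such regions, of which 2 widened and none narrowed in young adult libraries (limma, 0 narrowed on either scale), and 3 widened and 1 narrowed in mature adult libraries. The median region of the members changed by -0.06 and -0.12 (log2) against -0.13 and -0.19 over all regions.

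**Figure D2:**
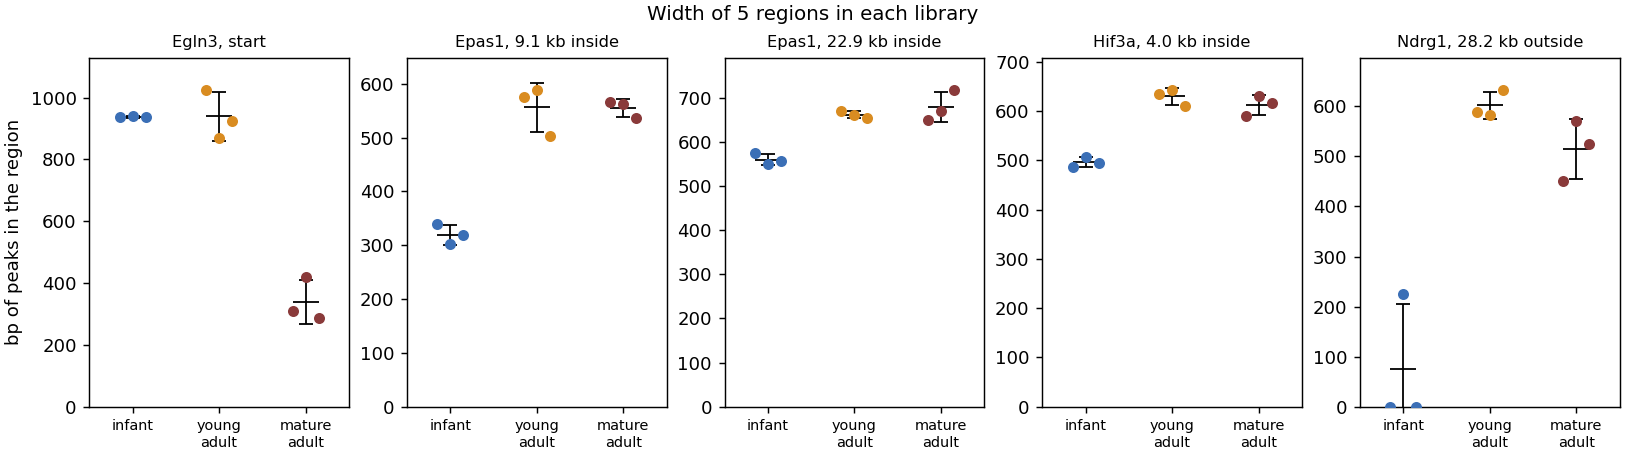
Base pairs of peaks in 5 regions (y axis, from 0) at the 3 ages (x axis), with points for libraries and bars for the mean and SD of 3 libraries. The start of Egln3 is narrow in the 3 mature adult libraries alone, the 2 Epas1 regions and the Hif3a region are wider in all adult than in all infant libraries, and the Ndrg1 region is at 0 in 2 infant libraries.

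Hif1a, the alpha subunit used by nearly all cells, kept its promoter peak and had fewer distant peaks in the adult lists. The promoter peak (chromosome 12, 73907341 to 73908735) measured 1381, 1324 and 1314 bp in infant, 1296, 1297 and 1269 bp in young adult and 1245, 1307 and 1278 bp in mature adult libraries. Every infant value lay just above every adult value, and the difference did not pass for young adult or mature adult against infant (limma adjusted p = 0.343 and 0.181). All 300 bases of the promoter window lay in a peak in all 9 libraries, with its HIF cores. These are the CACGTG that begins 135 bases before the start, a core on both strands, and the ACGTG that begins 70 bases before the start. The gene as a whole had 8, 9 and 8 peaks in infant, 6, 5 and 4 in young adult and 4, 6 and 4 in mature adult libraries, without overlap between infant and adult. The unscaled number was lower by -0.70 in young adult and -0.79 in mature adult libraries (log2; limma adjusted p = 0.0486 and 0.0219), as it was for 17.4% and 29.3% of genes. Scaled, the differences were -0.30 and -0.29 (limma adjusted p = 0.237 and 0.229), so no fall relative to the lists is stated.

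Covered length at Hif1a showed the same split between scales. It was 4237 ± 179 bp in infant, 2850 ± 377 bp in young adult and 2698 ± 426 bp in mature adult libraries (SD, n = 3 each). Unscaled, this was -0.56 and -0.64 on the log2 scale (limma adjusted p = 0.0123 and 0.00444; 38.6% and 55.9% of genes were called lower), and scaled it was -0.08 and -0.03 (limma adjusted p = 0.568 and 0.807). The scaled result also turned with distance. Within 10 kb of the gene alone the scaled length was higher, by 0.23 and 0.29 (limma adjusted p = 0.0364 and 0.011). The same was called for 4211 and 5348 of 13833 genes. Unscaled length within 10 kb was not tested, so no rise is stated. The regions with a peak in all infant libraries and in at most 1 adult library lay upstream. A region 28.0 kb before the start held 167, 150 and 416 bp in the infant libraries and no peak in any adult library, and its neighbour 27.3 kb before the start held 315, 368 and 509 bp in infants, 291 bp in young adult replicate 1 and no peak in the other adult libraries. Another region, 18.8 kb before the start, held 377, 323 and 385 bp in infants and 271 bp in mature adult replicate 2 alone among the adults. Downstream, the region 41.9 kb past the start held 364, 512 and 192 bp in infants, 455, 295 and 0 bp in young adult and 298, 352 and 0 bp in mature adult libraries, and the region 47.1 kb past the start had no peak in mature adult replicate 1.

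Hif3a, whose products include short forms known to restrain the other alpha subunits, differed by age at its start. The region over the start (chromosome 7, 17062316 to 17062715) held 212, 399 and 150 bp of peaks in the infant libraries and none in the 6 adult libraries. The 150 bp of infant replicate 3 is the smallest width that any list holds. In infant replicates 1 and 3 the peak ended 68 and 138 bases before the start, and in replicate 2 it reached 111 bases past it. Of the 300 bases of the promoter window shown above, 183, 300 and 113 lay in a peak in infants and 0 in every adult library. Both HIF cores of that window, 230 and 186 bases before the start, lay in a peak in 3 of 3 infant and 0 of 6 adult libraries. A second region seen only in infants lay 6.2 kb inside the gene (17055984 to 17056393) and held 409, 358 and 300 bp. A peak list without depth cannot show that these sites were closed in adults.

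At Hif3a, 3 regions between 2.2 and 4.0 kb inside the gene were open in all 9 libraries, and one of them was wider in adults. The region at 17058082 to 17058733 held 487, 507 and 495 bp in infant, 635, 643 and 611 bp in young adult and 590, 631 and 616 bp in mature adult libraries, and the infant values lay below all adult values. It rose by 0.34 ± 0.0688 (log2, SE) in young adult and 0.30 ± 0.0688 in mature adult relative to infant libraries (limma adjusted p = 0.0272 and 0.0229). Each call was lost in 5 of 9 repeats that left out 1 library. The adjusted p in these was 0.0634 to 0.0857 without any infant library or young adult replicate 1 or 2 for young adult, and 0.0517 to 0.072 without any infant library or mature adult replicate 2 or 3 for mature adult. The whole gene had 7, 7 and 5 peaks in infant, 5, 5 and 3 in young adult and 4, 4 and 3 in mature adult libraries, and did not pass in scaled number (limma adjusted p = 0.693 and 0.469) or scaled length (0.711 and 0.625). Unscaled, its number differed by -0.52 and -0.71 (limma adjusted p = 0.175 and 0.059) and its covered length by -0.40 and -0.51 (limma adjusted p = 0.0838 and 0.0291).

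Arnt, the partner subunit, varied little in its number of peaks. It had 3 peaks in each infant library, 2, 3 and 3 in young adult and 2, 3 and 3 in mature adult libraries. The widest peak over its start was 909, 888 and 1234 bp in infant, 837, 785 and 796 bp in young adult and 821, 762 and 737 bp in mature adult libraries. Every infant value was above every adult value, and the difference did not pass (limma adjusted p = 0.193 and 0.081). Its number of peaks did not pass either (limma adjusted p = 0.416 and 0.189 scaled, 0.616 and 0.572 unscaled). Its peaks covered 1727, 1548 and 1967 bp in infant, 1540, 1398 and 1429 bp in young adult and 1234, 1444 and 1348 bp in mature adult libraries, without overlap between infant and adult. Unscaled, this length gave -0.24 and -0.35 (limma adjusted p = 0.0872 and 0.0183), and scaled the sign turned, with 0.22 and 0.24 (limma adjusted p = 0.138 and 0.103). The 300 bases of its promoter window (chromosome 3, 95434140 to 95434439), with a GCGTG that begins 29 bases before the start, lay in a peak in all 9 libraries.

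**Figure D3:**
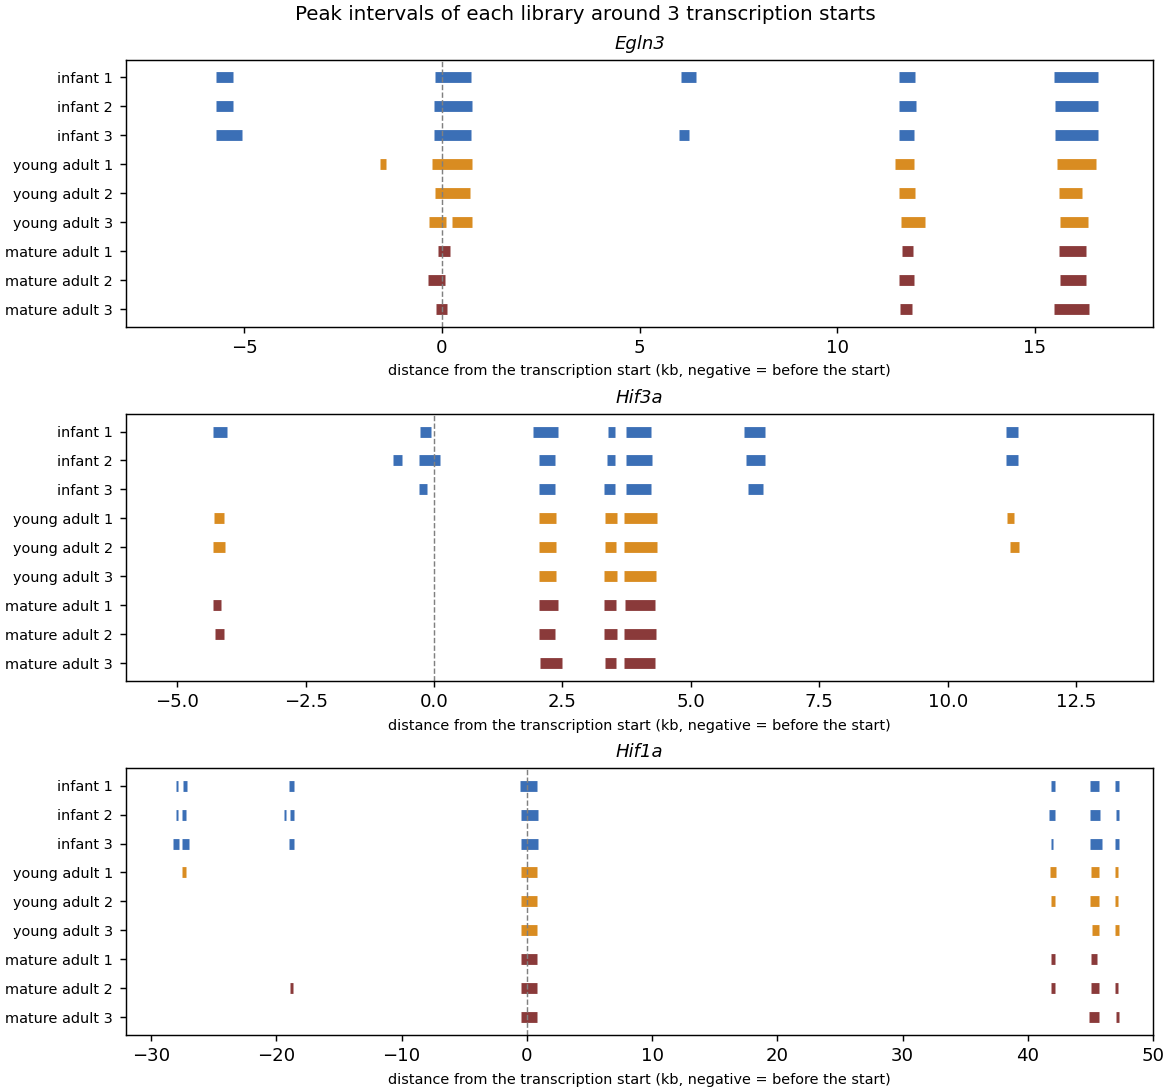
Peaks of each library (rows) drawn to scale along the DNA around the transcription starts of Egln3, Hif3a and Hif1a (x axis, distance from the start in kb, dashed line at 0). Bars are peak intervals of all ages, with infant libraries on top. At Egln3 the bar over the start shortens in the mature adult rows and the peak 5.4 kb before the start is seen in infant rows alone, and at Hif3a the bars at the start are seen in infant rows alone.

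Egln1, the main oxygen sensor in most tissues, kept a peak at its start in all 9 libraries. The region there (chromosome 8, 124949226 to 124950282) held 949, 1003 and 1023 bp in infant, 977, 827 and 754 bp in young adult and 497, 805 and 823 bp in mature adult libraries. Peaks there ended from 34 bases before to 28 bases past the start, so that most of the open stretch lay upstream. Both HIF cores of the window shown above, 126 and 68 bases before the start, lay in a peak in all 9 libraries. A region 22.8 kb inside the gene was wide in infants, with 943, 963 and 911 bp, and held 716, 280 and 251 bp in young adult and 0, 357 and 530 bp in mature adult libraries. The whole gene had 5, 6 and 7 peaks in infant, 4, 5 and 3 in young adult and 3, 5 and 4 in mature adult libraries. The number did not pass on either scale (limma adjusted p = 0.618 and 0.867 scaled, 0.163 and 0.129 unscaled). Its covered length, 3552, 3673 and 3045 bp in infant, 2509, 2356 and 1278 bp in young adult and 1295, 2052 and 1660 bp in mature adult libraries, did not overlap between infant and adult and passed unscaled only (limma adjusted p = 0.0443 and 0.0107 unscaled, 0.287 and 0.117 scaled). Without the pair that stood apart, it passed on both scales for mature adult against infant, with -0.31 scaled and -0.85 unscaled (limma adjusted p = 0.0474 and 0.00209). The scaled value also passed with only those 2 ages in the fit (0.0302), with the rows as deposited (0.0392) and without young adult replicate 3 (0.0195), and in the other 8 repeats that left out 1 library it did not.

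Egln3, the hydroxylase that is itself strongly induced by HIF in many cells, was the member with the clearest change. Its peaks covered 2028, 2530 and 2531 bp in mature adult libraries against 6052, 4796 and 5855 bp in infant libraries, with 3758, 2629 and 3416 bp in young adult libraries in between. Covered length fell in mature adult relative to infant libraries by 0.59 ± 0.149 (log2, SE) scaled and by 1.20 unscaled (limma adjusted p = 0.0106 and 0.000591), and 18.9% of all genes fell on both scales in this comparison, against 1.19% that rose. The call held in 9 of 9 repeats that left out 1 library (adjusted p between 0.00248 and 0.0386) and without the pair of libraries that stood apart (0.0281). For young adult against infant the length differed by -0.27 scaled and -0.76 unscaled (limma adjusted p = 0.177 and 0.00725), in a comparison in which 12.1% of genes fell and 0.896% rose. With all 9 libraries, no other member passed on both scales in covered length, and without that pair Egln1 also did. The number of peaks was 11, 10 and 11 in infant, 7, 4 and 8 in young adult and 4, 5 and 5 in mature adult libraries, without overlap between infant and adult. For mature adult against infant this gave -0.61 scaled and -1.12 unscaled (limma adjusted p = 0.0655 and 0.0146), and for young adult against infant -0.36 scaled (limma adjusted p = 0.268).

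The region over the start of Egln3 was narrower in mature adult libraries than at both younger ages. It (chromosome 12, 54203103 to 54204217) held 936, 941 and 936 bp of peaks in infant, 1025, 869 and 923 bp in young adult and 309, 421 and 287 bp in mature adult libraries. Infant and young adult libraries overlapped, and all mature adult libraries lay below both. The summed width in mature adult libraries fell by 1.49 ± 0.140 (log2, SE) relative to infant libraries (limma adjusted p = 0.00137). It also fell by 1.49 ± 0.140 relative to young adult libraries (limma adjusted p = 0.024), while young adult and infant differed by 0.00 (limma adjusted p = 0.997). Between mature and young adult, 0.0608% of the 41144 regions passed in either direction. The difference to infant held in 9 of 9 repeats that left out 1 library. The difference to young adult held in 3 of 9 and was lost without infant replicate 1 (0.0788), 2 (0.0798) or 3 (0.0506), young adult replicate 1 (0.128) or 2 (0.0948), or mature adult replicate 1 (0.0534). It was also lost with only the 2 ages compared (0.192) and with a replicate block (0.141). In infant libraries the peak reached 743 to 748 bases past the start into the gene, and in mature adult libraries 78 to 200 bases. The single widest peak over the start differed by -1.11 between mature and young adult libraries, which did not pass (limma adjusted p = 0.57, and 0.441 with the library median removed, but 0.0255 without the pair that stood apart). It fell by 1.49 ± 0.317 (log2, SE) in mature adult relative to infant libraries (limma adjusted p = 0.0255). This was lost without infant replicate 1 (0.0851), 2 (0.0727) or 3 (0.0558) or mature adult replicate 1 (0.0823) or 3 (0.0617).

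Upstream, 2 Egln3 regions were seen in the 3 infant libraries and no adult library. One lay 5.4 kb before the start (54208926 to 54209589) and held 437, 415 and 663 bp, and the other 60.0 kb before the start (54263566 to 54264256) and held 690, 410 and 384 bp. The ACGTG of the promoter window, 229 bases before the start, lay at the edge of the promoter peak, inside it in 0 of 3 infant, 2 of 3 young adult and 1 of 3 mature adult libraries. The fibroblast and mural markers together had 19 to 21 peaks in mature adult libraries against 46 to 51 in infant libraries, and their part in the Egln3 result was not tested. They had 19 to 20 peaks in the young adult libraries, in which the start of Egln3 held 869 to 1025 bp. In the same libraries Egln3 covered 2629 to 3758 bp with 4 to 8 peaks, against 4796 to 6052 bp and 10 to 11 peaks in infants. The start region thus differed from the other 2 measures in young adults, and how any of them relates to the markers was not tested. Over the 9 libraries, the scaled number of Egln3 was most like that of Arhgap15 (Pearson r = 0.931), Klhl29 (0.927) and Gpa33 (0.916) among 3802 genes.

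Vhl had 1 peak in every library, over its start (chromosome 6). It measured 1495, 1031 and 1195 bp in infant, 1013, 912 and 685 bp in young adult and 764, 1089 and 955 bp in mature adult libraries, and infant and mature adult values overlapped. Its width did not pass (limma adjusted p = 0.19 and 0.184). After scaling, the constant number of 1 was called higher in adult libraries (limma adjusted p = 0.000658 and 0.00012), and unscaled it did not differ at all, which shows what the scaled test alone can call. Of the promoter window, 205 to 300 bases lay in a peak in each library.

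Ndrg1, which HIF induces in many cells and which encodes a stress-response protein, kept most of its regions and had one that was mostly adult. It had 11, 14 and 9 peaks in infant, 11 in each young adult and 7, 10 and 10 in mature adult libraries, and the ages overlapped. Covered length was 6058 ± 217 bp in infant, 5304 ± 480 bp in young adult and 4552 ± 865 bp in mature adult libraries (SD, n = 3 each). Scaled, it was higher by 0.30 in young adult and 0.20 in mature adult than in infant libraries (limma adjusted p = 0.0255 and 0.0818), and unscaled the sign turned, with -0.19 and -0.42 (limma adjusted p = 0.268 and 0.0273), so neither direction is stated. The scaled young adult call was lost without infant replicate 1 (0.0807) or 2 (0.0709) or young adult replicate 1 (0.0567) or 2 (0.0726), and without the pair of libraries that stood apart the mature adult value was 0.27 (limma adjusted p = 0.0246). A region 28.2 kb outside the gene (chromosome 15, 66997479 to 66998152) held 589, 583 and 633 bp in young adult and 451, 570 and 524 bp in mature adult libraries, against 0, 226 and 0 bp in infant libraries. It was the only one of the 103 member regions with a peak in all adult and at most 1 infant library, a pattern shown by 1.14% of the 111778 regions assigned to genes. A region 7.3 kb inside the gene went the other way, with 530, 150 and 559 bp in infant, 221, 217 and 212 bp in young adult and no peak in mature adult libraries. It ended at 66962621, and the next region began at 66962628. That neighbour held 212 bp in infant replicate 2, 205 bp in young adult replicate 2 and 150 bp in mature adult replicate 2. The absence in mature adult replicate 2 thus depends on where the 2 regions were split, while mature adult replicates 1 and 3 had no peak in either.

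Across the 8 genes, the 103 regions comprised 46 at Epas1, 17 at Egln3, 12 at Ndrg1, 9 at Hif1a, 8 at Hif3a, 6 at Egln1, 4 at Arnt and 1 at Vhl. Of these, 41 (39.8%) were open in all 9 libraries, against 34.6% of the regions assigned to any gene. Regions seen in all infant and no adult library numbered 6 (5.83%), against 9.46%, and were at Hif3a and Egln3 (2 each) and at Epas1 and Hif1a (1 each). Regions seen in all adult and no infant library numbered 0, against 0.716% of all assigned regions. As far as counts go, the 103 regions thus had a slightly larger constant and a slightly smaller infant share than all assigned regions. Neither difference was tested. Epas1 weighed most in both, with 46 of the 103 regions, 21 of the 41 and 1 of the 6. Its own shares were 45.7% constant and 2.17% infant. In the other genes the constant share ran from 23.5% (Egln3) to 100% (Vhl, 1 region). Their infant share ran from 0% (Arnt, Egln1, Vhl and Ndrg1) to 25.0% (Hif3a). The pooled shares therefore do not describe each gene.

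**Figure D4:**
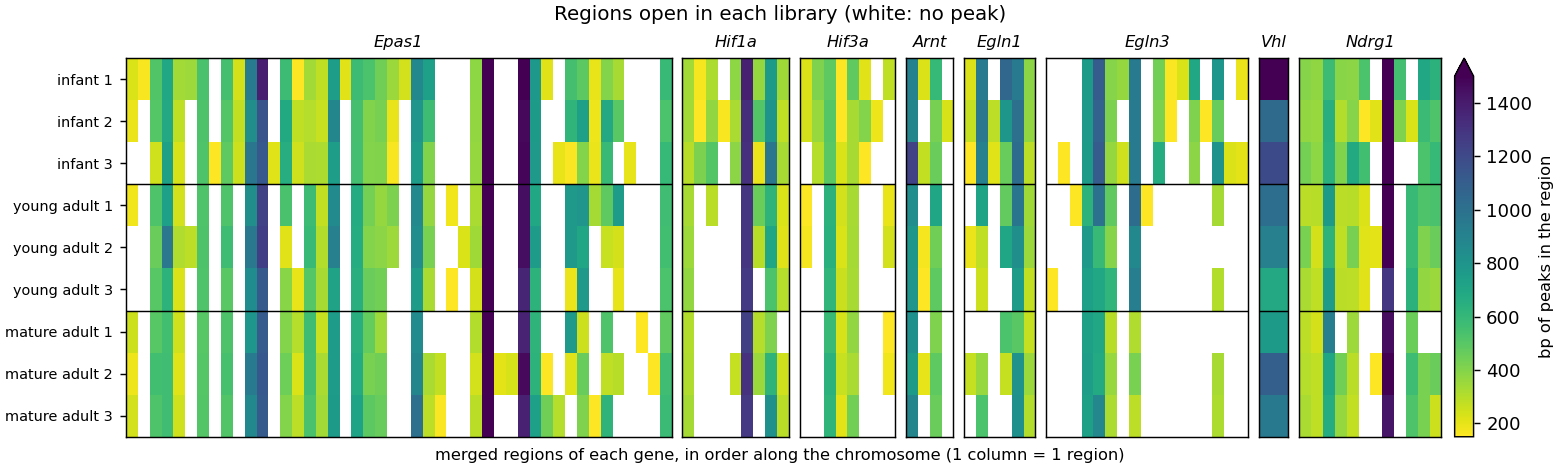
The 103 merged regions of the 8 genes (columns, in chromosome order within each gene) in the 9 libraries (rows, grouped by age), coloured by the base pairs of peaks in the region (colour bar, bp, white for no peak). Epas1 shows 21 columns filled in all rows, and Egln3 and Hif1a show columns filled in the infant rows and white below.

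Counted over both scales, no member passed in peak number, and in covered length and start width Egln3 alone passed with all 9 libraries, for mature adult against infant, joined in covered length by Egln1 without the pair that stood apart. In peak number, 1.1% of 14510 genes rose and 9.26% fell in young adult relative to infant libraries, and 1.42% rose and 13.9% fell in mature adult relative to infant libraries. In start width, 1.15% and 2.59% of 10945 genes fell in the same comparisons, and 6 of the 8 members could be tested, since Hif3a and Egln1 lacked a peak strictly over the start in some libraries. Between mature and young adult libraries no member passed in number, covered length or start width (limma), where 0.765%, 0.565% and 0.137% of genes did. The median member differed by 0.08 in scaled and -0.43 in unscaled number between mature adult and infant, against 0.14 and -0.31 over all genes, and all members but Vhl were lower unscaled.

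Other genes of the pathway were compared in peak number. Of 20 partners and regulators of HIF, 19 could be tested, and 2 fell in young adult and 2 in mature adult relative to infant libraries, where 9.26% and 13.9% of all genes fell, while 0 rose. They were the same pair. Crebbp, an acetyltransferase that serves HIF as a coactivator, had 2 peaks in each mature adult library against 8, 10 and 6 in infant libraries, with 4, 3 and 3 in young adult libraries (limma adjusted p = 0.000809 for mature adult, scaled). Arnt2, the close relative of Arnt known mainly from the nervous system, had 13, 15 and 14 in mature adult libraries against 24, 24 and 26 in infant libraries (limma adjusted p = 0.0278), and 13, 12 and 14 in young adult libraries. The Arnt2 call was past the threshold in 5 of 9 repeats that left out 1 library and was lost without infant replicate 2 (0.0628) or 3 (0.0808) or mature adult replicate 1 (0.0749) or 3 (0.0708). The list's median differed by 0.27 scaled and -0.22 unscaled for mature adult against infant, against 0.14 and -0.31 over all genes.

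Of 21 glycolytic and metabolic HIF targets, 0 rose and 1 fell in either adult age relative to infant, where 9.26% of all genes fell in young adult and 13.9% in mature adult libraries. This was Pgk1, a glycolytic kinase, with 1 peak in each adult and 2 in each infant library (limma adjusted p = 0.000448 for mature adult, scaled), and equal numbers within an age leave little spread. The list's median differed by 0.30 scaled and -0.16 unscaled for mature adult against infant, against 0.14 and -0.31 over all genes.

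Among vascular, matrix and stress targets, 24 of 28 could be tested, and 0 changed in young adult relative to infant libraries (limma, both scales). In mature adult relative to infant libraries 3 fell, near the 13.9% of all genes, and 0 rose. Mxi1, a repressor that opposes MYC, had 4, 5 and 5 peaks in mature adult libraries, against 10, 9 and 11 in infant libraries (limma adjusted p = 0.00483, scaled), and 9, 9 and 8 in young adult libraries. It was also the one gene of all these lists that fell in mature relative to young adult libraries (limma adjusted p = 0.0263, scaled). In that comparison 0.662% of all genes fell. Repeats that left out 1 library are not given for this call. Pgf, which encodes placental growth factor, had 2, 1 and 3 peaks in mature adult libraries against 8, 7 and 6 in infant libraries (limma adjusted p = 0.0152, scaled; 0.0532 without infant replicate 1). P4ha2, a collagen prolyl hydroxylase, had 4, 6 and 4 peaks in mature adult libraries against 12, 10 and 14 in infant libraries (limma adjusted p = 0.0159, scaled), and was lost without infant replicate 3 (0.0516) or mature adult replicate 1 (0.0515) or 3 (0.0512). The list's median differed by 0.12 scaled and -0.38 unscaled.

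Of the 3 relatives of Ndrg1, Ndrg4 fell in mature adult relative to infant libraries, with 1, 2 and 1 peaks in mature adult libraries against 5, 5 and 6 in infant libraries (limma adjusted p = 0.0415, scaled). It was past the threshold in 3 of 9 repeats that left out 1 library, with adjusted p up to 0.112, and was lost without any infant library, young adult replicate 1 or mature adult replicate 1 or 3. Ndrg2 and Ndrg3 did not pass.

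By likeness over the 9 libraries in scaled peak number among 3802 genes with a mean of at least 5 peaks, Epas1 was nearest to Mapt (Pearson r = 0.986), Cpeb3 (0.976) and Sec14l1 (0.964). Hif1a was nearest to Parp11 (0.958), Hhex (0.945) and Col13a1 (0.936), and Ndrg1 to Pgr (0.939), Stk4 (0.925) and Itga6 (0.908). These values describe 9 points that share their libraries and list lengths, and the best of so many genes is high by selection.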

How the data were processed

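ATAC-seq peak lists of 9 libraries of sorted mouse lung endothelial cells (3 infant, 3 young adult, 3 mature adult, grouped by their titles) form the data. Per the file headers, the deposited lists hold only positions: chromosome, start and end. Per the submitters' processing notes, cutadapt, Bowtie2 and Picard were used with build mm10. Which caller and cutoff made the peaks is not given in the sources used here, nor is any shift of reads. Whether starts count from 0 or 1 is not stated, so positions may be off by 1 bp. Read depth is unknown, and no interval based on reads is given.

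Repeated intervals were counted once. Peaks were assigned to 21887 RefSeq genes of GRCm38.p6 by centre, else by the nearest end within 100 kb. Peaks overlapping by 1 bp were merged into 126907 regions. Tested with limma 3.58.1 in R 4.3.3 (mean-variance trend, all libraries in 1 fit, Benjamini-Hochberg adjustment, threshold 0.05) were log2(peaks + 0.5) and log2(bp + 100) for 14510 genes (mean over libraries of 1 peak or more), scaled to each list's total and unscaled, and log2 widths of start peaks (10945 genes) and of regions in all 9 libraries (41144). Changes of genes with few peaks are understated. Epas1 and Ndrg1, without a promoter entry, were given the widest peak within 1 kb of either gene end as start peak. Alternatives were a larger added constant, no filter, 10 kb in place of 100 kb, rows as deposited and the 50000 widest peaks of each list. Further ones were a replicate block, fits with only the 2 ages compared, libraries left out, a merging overlap of 100 bp and a start window of 500 bp. The number and width tests were run on simulated data first. Named list genes are at most the 3 with the smallest adjusted p per list and direction that passed both scales for mature adult against infant. The members and lists were chosen with earlier results of these data known. Figures were drawn with Python 3.11.15 and matplotlib 3.10.9 from tables made with pandas 2.3.3 and numpy 2.4.6.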

Additional observations from a re-analysis of the deposited data

How the results depend on the processing

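The counts of members past the threshold, on the scaled or main values alone, moved with several choices. They pool both directions, so the numbers over all genes or regions are given beside them. For covered length of mature adult against infant, 2 members passed, and 6 without scaling, 4 within 10 kb, 4 without the pair that stood apart, and 5 without that pair and without scaling. The 2 were Epas1 (higher) and Egln3 (lower), and the 6 were all lower. Of 14510 genes, 5019 were higher and 2740 lower scaled, and 172 were higher and 8117 lower unscaled. Within 10 kb, 5348 of 13833 genes were higher and 2241 lower. Without the pair, 4910 were higher and 3039 lower, and also without scaling 241 and 7632. For covered length of young adult against infant, 2 passed, and 0 with the rows as deposited and 1 to 3 when 1 library was left out. Of all 14510 genes, 3857 were higher and 1757 lower, and with the rows as deposited 798 and 1161 of 15012. For peak number of mature adult against infant, 2 passed, and 1 with the 50000 widest peaks. Of all 14510 genes, 4414 were higher and 2014 lower, and with the widest peaks 1194 and 957 of 13009. For peak number of young adult against infant, 2 passed, and 1 without scaling, 0 with the widest peaks, 1 with only the 2 ages compared, 0 without scaling and without the pair of libraries, and 1 to 2 when 1 library was left out. Here too the scaled 2 were Epas1 and Vhl (higher), and the unscaled 1 was Hif1a (lower). Of all 14510 genes, 3785 were higher and 1355 lower, and 160 and 2527 without scaling. With the widest peaks these were 776 and 503 of 13009, and with only the 2 ages 4062 and 1478. Without scaling and without the pair they were 168 and 2241. For start width, leaving out 1 library gave 0 to 1 in place of 1 (mature adult against infant) and 0 to 1 in place of 0 (mature against young adult), and leaving out the pair gave 1 for mature against young adult. Of 10945 genes, 11 were wider and 1612 narrower for mature adult against infant, and 4 and 19 for mature against young adult. Without the pair the latter were 27 and 254 of 11164. For region width, 5 member regions passed for mature adult against infant (4 of them also with the library median removed), and 8 with only the 2 ages compared and 2 to 7 when 1 library was left out. For young adult against infant 2 passed, and 1 to 2 when 1 library was left out. For mature against young adult 1 passed, and 0 with only the 2 ages and 0 to 1 when 1 library was left out. Of all 41144 regions, 791 were wider and 6733 narrower for mature adult against infant, and 694 and 7241 with only the 2 ages. They were 460 and 2388 for young adult against infant, and 4 and 36 for mature against young adult. Why the member counts moved was not tested. Fewer libraries or a single pair of ages leave less to estimate the spread.

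The deviations of same-numbered libraries correlated between -0.172 and 0.167, and the replicate numbers were not used as pairs in the main fit. Values for differently numbered libraries are not set beside these, so whether same-numbered libraries were handled together was not tested. With a replicate block, 1 member passed in peak number for young adult against infant, and 1, 2 and 0 member regions in width for young adult against infant, mature adult against infant and mature against young adult. With that block, 3667 of 14510 genes were higher and 1278 lower in number for young adult against infant. Of the 41144 regions, 270 were wider and 1365 narrower, 591 and 5188, and 0 and 0, in the same order of comparisons.

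Some differences changed sign. Without scaling, Epas1 gave -0.15 (young adult against infant) and -0.16 (mature adult against infant) in peak number and -0.11 and -0.16 in covered length, and Ndrg1 -0.19 and -0.42 in covered length, against positive scaled values. Without scaling and without the pair, Epas1 gave -0.055 and -0.10 in number and -0.025 and -0.12 in length, and Ndrg1 -0.12 and -0.28 in length. Hif1a, negative when scaled, gave within 10 kb 0.25 and 0.24 in number and 0.23 and 0.29 in length, with the rows as deposited 0.019 and 0.052 in number and 0.28 and 0.36 in length, and with the widest peaks 0.40 and 0.48 in number and 0.27 and 0.34 in length. Its length for mature adult against infant was also 0.025 without the pair, 0.035 without infant replicate 3 and 0.025 without mature adult replicate 1. Egln3 for young adult against infant gave 0.064 in number and 0.003 in length within 10 kb. In start peak width it gave 0.009 without the pair, and -0.629 to 0.009 when 1 library was left out, the highest without young adult replicate 3. Its start region, at -0.00 for young adult against infant, gave 0.199 with the library median removed, 0.009 without the pair and -0.066 to 0.053 when 1 library was left out. Arnt2 gave 0.084 with the widest peaks for mature adult against infant. For members and measures without a printed difference, 57 of 482 alternatives gave the other sign. The fall of Egln3 in covered length for mature adult against infant kept its sign and its side of the threshold in every alternative run. The counts of member regions (103 in all, 41 in all 9 libraries, 6 in infants alone, 0 in adults alone) stayed within 1.5 times with a merging overlap of 100 bp. Without read depth, a shallow library and a closed site give the same missing peak, so regions seen at one age are descriptions of these lists.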

Other observations

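Beyond the start, some other regions inside or outside Egln3 and Egln1 differed from each other in how steady they were. The Egln3 region 16.1 kb inside the gene held 1106, 1075 and 1105 bp of peaks in infant, 997, 589 and 688 bp in young adult and 690, 674 and 876 bp in mature adult libraries, so that all infant values lay above all adult ones. The Egln3 region 16.2 kb beyond the far end of the gene held 762, 775 and 765 bp in infant, 628, 774 and 738 bp in young adult and 735, 749 and 734 bp in mature adult libraries, and hardly varied. At Egln1, the region 1.0 kb inside the gene held 1053, 785 and 463 bp in infant, 472, 705 and 0 bp in young adult and 531, 267 and 0 bp in mature adult libraries, and the ages overlapped.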
